A study of Mus musculus with 3 samples.

Results

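Transgenic Line 3 was set against wild type across all genes of an Affymetrix mouse array, using the 2 arrays of these genotypes out of 3 in the series. Both samples were bone marrow cells of 10-week-old C57BL/6J mice, sorted as Sca-1-positive and free of lineage markers, which enriches blood-forming stem and progenitor cells. The wild type mice carried no transgene, and the transgenic mice carried the transgene written Tg(Ly6a-KDM1A*v2 in the labels, a construct of KDM1A named with Ly6a, the gene for Sca-1. The third array held the same cell fraction of Line 6, a separate line of the same construct. It entered the choice of probe sets and the filter described below, and otherwise served only to check directions. Ly6a thus stands both in the name of the construct and behind the sorting marker. The labels used here do not say what drives the transgene in which cells, how many mice gave each sample or of which sex they were. Each genotype had 1 array, so no value below has a replicate error and no p-value is given.

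KDM1A, also called LSD1, is a histone demethylase that removes mono- and dimethyl marks from lysines of histone H3, mainly as a subunit of corepressor complexes with CoREST (Rcor1) and histone deacetylases. In blood formation it is recruited by the repressors GFI1 and GFI1B, and it takes part in switching off stem and progenitor genes during granulocyte and red cell maturation. Granulocytes form their primary granules at the promyelocyte stage and their secondary and tertiary granules later, so that the granule genes report stages of maturation.

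Values are intensities on a linear scale, and differences are Line 3 minus wild type on the log2(intensity + 16) scale, so that 1 is a 2-fold difference and differences of dim genes are understated. For a gene with several probe sets, the one brightest on average over the 3 arrays (mean of log2) stands for it, and genes are counted as past the filter where at least 1 array reached its own median. A gene is called higher or lower at 2-fold or more. Of 18193 genes on the array, 10864 were past the filter. Array medians lay between 96.2 (wild type) and 116 (Line 6), and no detection calls came with the values. In bulk RNA, fewer cells of a type and less RNA per cell cannot be told apart.

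The labelled cell type was checked on its markers. The progenitor genes Kit (603 in wild type, 923 in Line 3), Cd34 (971 and 2315), Flt3 (570 and 1152), Meis1 (161 and 365) and Gata2 (1984 and 4114) were present on both arrays. Of the markers of mature cells that the sort should remove, Ms4a1, the CD20 gene of B cells, read below the array medians in wild type (83.5) and Line 3 (35.4). Itgam, the integrin subunit CD11b of myeloid cells, read 2653 in wild type and 1088 in Line 6, against 713 in Line 3. The macrophage gene Adgre1 read 390, 565 and 448, the T cell gene Cd3e 258, 292 and 133, and Nkg7, of cytotoxic cells and some progenitors, 2777, 2764 and 3715. Myeloid RNA was thus present in all 3 samples.

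More genes were lower than higher in Line 3, and the lower ones differed by more. Of the genes past the filter, 388 (3.57%) were at least 2-fold higher in Line 3 and 484 (4.46%) were at least 2-fold lower. At 4-fold or more, 15 genes were higher and 110 lower, and at 8-fold or more 2 were higher and 22 lower. The median difference over genes past the filter was 0.12 and the SD 0.60, with the quartiles at -0.20 and 0.42. Among the 872 genes past 2-fold, 44.5% were higher. The count of higher genes was 193 with a pseudocount of 64 and 112 when at least 1 array had to reach its 75th percentile, against 376 and 301 lower genes. With a pseudocount of 1 the gap was smaller, at 498 higher and 545 lower genes, of which 47.7% were higher. The size of the gap thus depends on the pseudocount and the filter.

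The higher genes lay mostly among the dimmer ones, and the lower genes ran over the whole range of brightness. When the genes past the filter were ranked by brightness and cut into 4 equal bins, in the dimmest bin 9.06% were higher and 6.81% lower, and in the brightest bin 0.552% were higher and 2.91% lower. Wild type read below its array median for 157 of the 388 higher genes, and Line 3 read below its own for 148 of the 484 lower ones. Among the 9912 genes at or above the array median on both arrays, 231 (2.33%) were higher and 336 (3.39%) lower. Other probe sets of the called genes measured the same RNA a second time on these arrays. For the higher genes, 175 of 186 other probe sets past the filter also lay above 0, 74 of them past 2-fold, with a median of 0.83. For the lower genes, 261 of 265 lay below 0, 190 of them past 2-fold, with a median of -1.31. Other probe sets below the filter lay on the gene's side in 132 of 206 cases for higher genes and in 72 of 110 for lower ones.

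**Figure D1:**
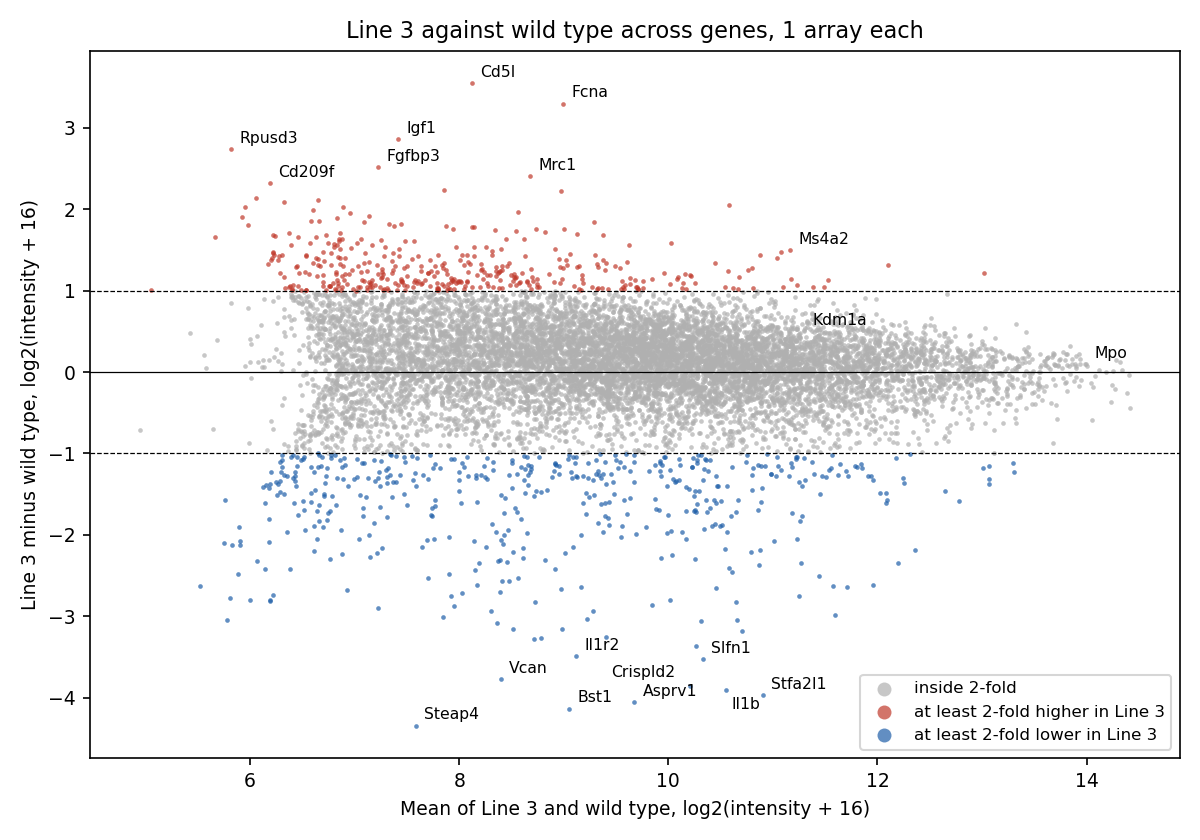
Each point is 1 of the 10864 genes past the filter, with its mean over the Line 3 and wild type arrays on the x axis and the Line 3 minus wild type difference on the y axis, both on the log2(intensity + 16) scale. Dashed lines mark 2-fold. The 388 higher genes (red) thin out toward bright genes, while the 484 lower genes (blue) reach -4.35 and continue into the bright range.

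The genes that were lowest in Line 3 relative to wild type are genes of granulocytes and of inflammatory myeloid cells. Steap4, a metalloreductase, read 848 in wild type and 209 in Line 6, against 26.5 in Line 3, a 20.3-fold lower value in Line 3. Bst1, the ADP-ribosyl cyclase CD157 of myeloid cells, read 2207, 588 and 111 (17.6-fold lower), and its second probe set 853, 301 and 86.9. Asprv1, an aspartic protease expressed in skin and neutrophils, read 3314, 626 and 184 (16.7-fold lower). For each of these genes Line 3 was the lowest array and Line 6 lay between it and wild type.

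Secreted proteins and cytokine genes of the same kind followed. Stfa2l1, of the stefin family of cysteine protease inhibitors, whose copies are nearly alike and may share probe signal, read 7563 in wild type and 2216 in Line 6, against 467 in Line 3. Il1b, the interleukin 1 beta gene, read 5778, 898 and 370, and Il1r2, the decoy receptor that captures this cytokine, 1851, 259 and 150. Crispld2, a secreted protein that binds lipopolysaccharide, read 4482, 562 and 295, a difference of -3.86 with its 2 other probe sets at -3.48 and -3.42. Both the cytokine (-3.91) and its decoy (-3.49) were thus lower. Vcan, the matrix proteoglycan versican, read 1233, 106 and 75.4. Of its 7 other probe sets, the 3 past the filter differed by -4.13 to -4.57, and 2 dim ones lay at 0.28 in Line 3.

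The remaining leading genes complete this picture. Slfn1 (schlafen 1) differed by -3.53, Orm1, an acute phase plasma protein also made by granulocytes, by -3.28, and Trem1, a receptor that amplifies inflammatory signals in neutrophils and monocytes, by -3.27. Ceacam10 differed by -3.25, Il1f9, an interleukin of the IL-1 family also called IL-36 gamma, by -3.18, Clec4e, the Mincle receptor for mycobacterial glycolipid, by -3.16, and Ifnlr1, a subunit of the interferon lambda receptor, by -3.15. In Line 6 these 7 genes differed by between -2.94 (Orm1) and -1.22 (Il1f9). Both lines share the wild type array, and a chance value there enters both comparisons. When only genes at or above the array medians on both arrays were ranked, the first 10 lower genes with a gene name were Bst1, Asprv1, Stfa2l1, Il1b, Crispld2, Slfn1, Il1r2, Orm1, Trem1 and Ceacam10, all of them named above.

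**Figure D2:**
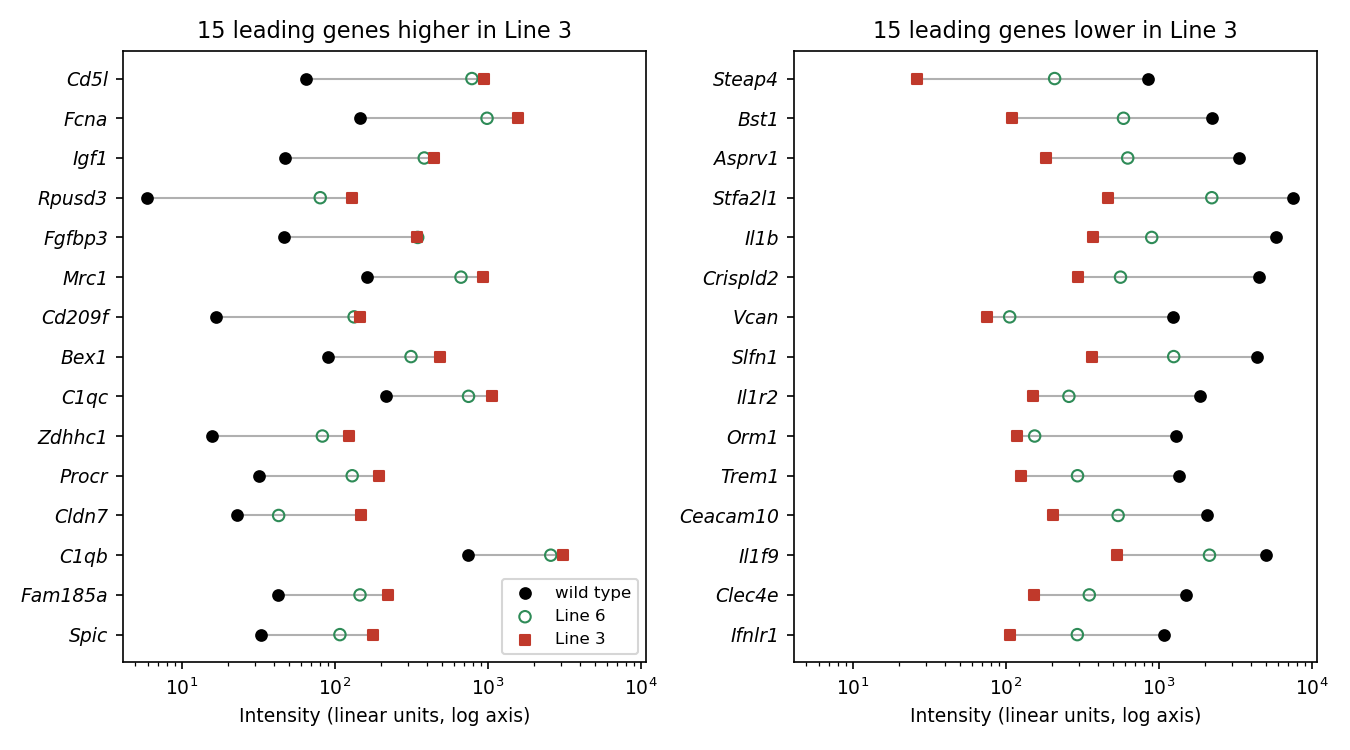
The 15 leading genes higher in Line 3 (left) and lower in Line 3 (right), by size of difference, with intensity on a log x axis for wild type (black), Line 6 (green rings) and Line 3 (red squares), 1 array each. Gene models and accession-like symbols were left out of the ranking. Line 3 and wild type are far apart in each row by the choice of genes, and for Steap4 the arrays read 848, 209 and 26.5.

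Granule genes of neutrophils differed by stage. On their brightest probe sets, genes of the primary granules showed no 2-fold difference in Line 3. Genes of the secondary and tertiary granules were lower, and genes of the mature neutrophil were lowest. Of 10 primary granule genes on the array, 0 were past 2-fold in either direction, and their median difference was 0.16. Of 16 secondary and tertiary granule genes, 12 were at least 2-fold lower and 0 higher, with a median of -1.28. Of 16 mature neutrophil genes, 12 were lower and 0 higher, with a median of -2.21. Over all genes on the array the median was 0.04, 4.82% were at least 2-fold lower and 3.8% at least 2-fold higher. All members of these 3 lists that were on the array passed the filter. These lists, like the other gene lists used here, were chosen with earlier results of these data known. Their counts and their order are thus not independent evidence. The Line 6 medians of the lists were -0.01, -0.86 and -1.29.

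Some primary granule genes read nearly alike on the 3 arrays. Mpo, the myeloperoxidase gene, read 15770 in wild type and 15952 in Line 6, against 16895 in Line 3. Elane, the neutrophil elastase gene, differed by 0.19, and Prtn3, encoding proteinase 3, by 0.18. Serpinb1a, an inhibitor of these proteases, had the largest difference of the list, -0.82 in both lines, with 5469 in wild type and 3093 in Line 3. Cst7 differed by 0.62 in Line 3 and Ctsg by 0.31. Ctsc differed by -0.33 on its brightest probe set. Its other probe sets, both past the filter, differed by -1.16, which is past 2-fold, and -0.73.

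The later granule genes were lower by different amounts. Itgb2l, an integrin chain of neutrophils, read 4233 in wild type and 1106 in Line 6, against 586 in Line 3. Mmp8 and Mmp9, the neutrophil collagenase and gelatinase, differed by -2.63 and -2.61, Cd177, a surface protein of neutrophils, by -2.34, and Olfm4 by -1.96. The secondary granule genes Ltf (lactoferrin, -1.12) and Lcn2 (lipocalin 2, -1.38) were lower by less, and Camp (cathelicidin, -0.87) and Ngp (-0.58) lay inside 2-fold. In the mature neutrophil list, Cxcr2, the chemokine receptor that draws neutrophils out of the marrow, read 3500, 1353 and 648, and Csf3r, the G-CSF receptor, differed by -1.77. The calprotectin genes S100a8 (-0.45) and S100a9 (-0.25) read between 18745 and 25535 on the arrays. The summed intensity of the mature neutrophil list was 112403 in wild type and 76717 in Line 6, against 59694 in Line 3, and that of the secondary and tertiary granule list 157031, 91116 and 66414. Of the mature neutrophil sum, S100a8 and S100a9 made up 43.6% in wild type and 64.3% in Line 3. Without them, an alternative chosen after seeing the data, it was 63436 in wild type and 31440 in Line 6, against 21296 in Line 3. None of these genes read 0, and the lowest member value in Line 3 was 65.2 (Stfa3).

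The promoters of some of these genes are shown because their genes differed together, with the 250 bases before the start site of the RefSeq annotation (GRCm38.p6), read 5′ to 3′ on the gene's strand. Capitals mark matches on either strand to AGATAA (bound by GATA factors), TTGCNNAA (bound by C/EBP factors, where N is any base) or GAGGAA (a core bound by PU.1). No motif is contained in another. From each of 3 lists, the first 2 genes by size of difference are shown that had a single listed start site and at least 1 match, beginning with the mature neutrophil list.
Trem1, chr17:48232489-48232738, plus strand: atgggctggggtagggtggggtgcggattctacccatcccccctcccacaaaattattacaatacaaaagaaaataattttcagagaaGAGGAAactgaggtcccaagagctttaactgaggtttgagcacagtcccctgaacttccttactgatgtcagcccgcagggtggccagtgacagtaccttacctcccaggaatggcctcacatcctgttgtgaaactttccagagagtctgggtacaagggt
Il1f9, chr2:24186226-24186475, plus strand: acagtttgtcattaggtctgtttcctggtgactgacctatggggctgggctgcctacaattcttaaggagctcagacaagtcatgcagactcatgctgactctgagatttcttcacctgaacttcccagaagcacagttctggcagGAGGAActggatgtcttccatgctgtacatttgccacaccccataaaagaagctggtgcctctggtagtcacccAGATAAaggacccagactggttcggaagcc

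Of the 12 mature neutrophil genes past 2-fold, 11 matched a promoter. GAGGAA lay in 8 of these 11 windows (72.7%), against 23.3% of all 32851 promoter windows of this length. TTGCNNAA lay in 1 of 11 (9.09%, against 9.56% of all windows) and AGATAA in 2 of 11 (18.2%, against 9.99%). A match is a description of the sequence and not a measured binding site.

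Some receptors that sense microbes were lower in Line 3. Of 11 genes whose symbols begin with Tlr and that were past the filter, 6 were at least 2-fold lower and 0 higher, and of 13 that begin with Clec, 6 were lower and 0 higher, where 4.46% of all genes past the filter were lower. These groups were formed by symbol after the values had been seen. Tlr13, the receptor for bacterial ribosomal RNA, read 1249 in wild type and 564 in Line 6, against 184 in Line 3, and Tlr4, the receptor for lipopolysaccharide, 1288, 798 and 496. Tlr3, a receptor for double-stranded RNA, differed by 0.75 and Tlr9, a receptor for DNA, by 0.15, so the family did not run one way. Clec4d, which pairs with Clec4e, read 6309, 2717 and 922, and Clec7a, the dectin 1 receptor for fungal glucan, 1357, 755 and 574. Line 3 was the lowest array for Clec4e, Clec4d, Clec5a, Clec4a2, Clec7a and Clec4a3 and for Tlr13, Tlr8 and Tlr4, while Tlr6 (377, 104 and 151) was lowest in Line 6.

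Monocyte genes were lower by less. Of 17 on the array, 3 were at least 2-fold lower and 0 higher, against 4.82% and 3.8% of all genes there. The list median was -0.44 (-0.46 in Line 6). The 3 were Vcan, Cd14, a co-receptor for lipopolysaccharide that read 436 in wild type and 63.7 in Line 6, against 132 in Line 3, and Fn1, the fibronectin gene, at 6093, 3851 and 2498. Ccr2, the receptor that brings monocytes to inflamed tissue, differed by -0.54, Lyz1 by -0.59 and Csf1r, the receptor for macrophage colony-stimulating factor, by -0.13. Neutrophil lists were lower on the same array (medians -1.28 and -2.21), and their part in the monocyte values was not tested.

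Cytokine and receptor genes went both ways. Among inflammatory cytokines and NF-kB genes, 22 were on the array, and 7 were at least 2-fold lower and 3 higher. The shares of all genes on the array were 4.82% and 3.8%. The list median was -0.07 (-0.43 in Line 6). Cxcl2, a chemokine that attracts neutrophils, read 3512 in wild type and 116 in Line 6, against 543 in Line 3, and Ptgs2, the inducible prostaglandin synthase, 782, 43.1 and 187. Both were low in the lines and lowest in Line 6. Tnf read 252, 111 and 69.3, and Ccl2 153, 53.4 and 49.5, which was inside 2-fold (-0.94) with a pseudocount of 64. On the other side, Il6 read 114, 62.8 and 289, Ccl4, a chemokine of macrophages, 768, 542 and 1771, and Il18 86.1, 165 and 214. For Il6, which is also on the mast cell and basophil list, and Ccl4 Line 6 was below wild type and Line 3 above it.

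Of 25 cytokine receptor genes, 3 were at least 2-fold lower and 0 higher, against 4.82% and 3.8% of all genes on the array. The list median was -0.09 (-0.27 in Line 6). The 3 were Il1r2, Csf3r and Il13ra1, a subunit of the receptor for interleukins 4 and 13. Il13ra1 read 1627 in wild type and 531 in Line 6, against 398 in Line 3. Il1rap, the shared signalling chain of IL-1 receptors, differed by -0.99. Of 27 genes of TGF-beta, activin and BMP signalling, 3 were lower and 2 higher, against the same shares of all genes. The median of this list was 0.06. Inhba, the activin A subunit, read 1691, 284 and 192, Acvrl1, the receptor ALK1, 645, 80.0 and 114, and the BMP receptor Bmpr1a 729, 349 and 134. The co-receptor Tgfbr3 read 151, 319 and 353. The other higher gene, Inhbb, an activin B subunit, was below the filter at 1.01. Tgfbr3 lay inside 2-fold with a pseudocount of 64 (0.96) and over the median of its probe sets (0.60).

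A few immediate early genes, which cells switch on within minutes of a stimulus, were lower. Of 27 on the array, 4 were at least 2-fold lower and 0 higher, against 4.82% lower of all genes, and 8 lay above 0, with a median of -0.40 in Line 3 and -0.78 in Line 6. Klf2 read 1862 in wild type and 742 in Line 6, against 690 in Line 3, Atf3 609, 101 and 233, and Dusp6, a phosphatase that limits ERK signalling, 2006, 999 and 858. Egr3 (245, 82.5 and 106) lay inside 2-fold with a pseudocount of 64 (-0.87) and over the median of its probe sets (-0.61). Dusp2 ran the other way at 0.98.

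Genes of resident tissue macrophages were among the leading higher genes of Line 3, and other leading genes follow further on. Of 22 such genes on the array, 13 were at least 2-fold higher and 0 lower, against 3.8% higher and 4.82% lower of all genes on the array, with a median of 1.31 in Line 3 and 1.11 in Line 6, and 19 were past the filter, 5 of them only through the transgenic lines. Cd5l, a protein that tissue macrophages secrete, read 65.4 in wild type and 786 in Line 6, against 939 in Line 3. Fcna, encoding the lectin ficolin A, read 146, 987 and 1581, a 9.84-fold higher value in Line 3. Mrc1, the mannose receptor, read 162, 667 and 926. In each of them wild type was the low array and Line 3 the high one. The list was chosen with earlier results of these data known, so its count is not independent evidence.

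Scavenging and engulfment genes were higher as well. The complement C1q chains C1qa, C1qb and C1qc differed by 1.63, 2.05 and 2.22, with C1qb at 739 in wild type and 2573 in Line 6, against 3107 in Line 3 and its 2 other probe sets at 1.66 and 2.18. Cd163, the receptor for haemoglobin bound to haptoglobin, read 262, 811 and 924, Axl, a receptor for dying cells, 216, 586 and 764, and Mertk, its relative, 49.5, 133 and 174. Spic, the transcription factor of iron-recycling macrophages, read 32.9, 108 and 178. The remainder of the list did not all follow: Cd68 (-0.34) and Slc40a1, the iron exporter ferroportin (-0.21), lay below wild type, and Adgre1 differed by 0.19. The list's summed intensity was 10280 in wild type and 17775 in Line 6, against 21262 in Line 3. Mature neutrophil genes were lower on the same array (summed 112403 in wild type and 59694 in Line 3), and the part of this in the macrophage values was not tested.

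The promoters of the first 2 macrophage genes are printed with the same marks.
Cd5l, chr3:87357631-87357880, plus strand: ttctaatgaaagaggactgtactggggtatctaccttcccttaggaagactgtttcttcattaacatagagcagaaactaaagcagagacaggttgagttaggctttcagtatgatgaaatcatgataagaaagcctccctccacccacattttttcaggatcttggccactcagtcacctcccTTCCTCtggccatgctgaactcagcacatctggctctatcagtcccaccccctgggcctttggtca
Fcna, chr2:25627975-25628224, minus strand: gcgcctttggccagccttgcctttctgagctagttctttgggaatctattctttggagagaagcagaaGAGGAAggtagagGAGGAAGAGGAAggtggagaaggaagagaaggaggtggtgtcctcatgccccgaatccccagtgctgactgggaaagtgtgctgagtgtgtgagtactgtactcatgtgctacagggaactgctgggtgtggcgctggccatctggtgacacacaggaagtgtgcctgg

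Of the 12 macrophage genes past the filter and past 2-fold, 9 matched a promoter, and GAGGAA lay in 6 of these 9 windows (66.7%, against 23.3% of all windows). The Fcna window held 3 copies. Neither AGATAA nor TTGCNNAA lay in any of the 9.

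The other leading higher genes belong to no single cell type. Igf1, the insulin-like growth factor 1 gene, read 47.5 in wild type and 384 in Line 6, against 445 in Line 3, and its second probe set past the filter 16.4, 154 and 147. Fgfbp3, a carrier of fibroblast growth factors, read 46.6, 348 and 343, and Bex1 90.5, 315 and 487. Cd209f, a C-type lectin, differed by 2.32, Rpusd3, a mitochondrial pseudouridine synthase, by 2.74, Zdhhc1, a palmitoyltransferase, by 2.13 and Fam185a by 2.03. Wild type read 5.91 for Rpusd3, 15.8 for Zdhhc1 and 16.7 for Cd209f, so these folds depend on the pseudocount.

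Among the other leading higher genes were 3 adhesion genes known from epithelia, which were on no list and are set side by side here after their values were seen. Cdh1, the E-cadherin gene, read 315 in wild type and 490 in Line 6, against 1171 in Line 3. Epcam read 110, 122 and 422, and Cldn7, a claudin that binds EPCAM, 22.9, 43.0 and 149. Line 3 was the high array for each, and Line 6 differed from wild type by 0.61 for Cdh1, 0.13 for Epcam and 0.60 for Cldn7. Among genes at or above the array medians on both arrays, the first 10 higher ones were Fcna, Mrc1, C1qc, C1qb, Angpt1, Cdh1, Epcam, Fgf3 (1.78), the lipid kinase gene Sphk1 (1.78) and Cd163.

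Many stem cell genes were higher in Line 3. Of 34 on the array, 15 were at least 2-fold higher and 0 lower, against 3.8% higher of all genes on the array, with a median of 0.92 in Line 3 and 0.66 in Line 6, and 26 were past the filter, 6 of them only through the transgenic lines. Mature neutrophil and later granule genes were lower on the same array (medians -2.21 and -1.28), and their part in the stem cell values was not tested. Procr, a surface marker of stem cells, read 32.3 in wild type and 130 in Line 6, against 194 in Line 3. Angpt1, a ligand of the TIE2 receptor that stem cells carry, read 175, 632 and 729, and Mecom, a transcription factor needed by stem cells, 69.6, 260 and 286. Hlf, another transcription factor of these cells, read 367, 607 and 1021, and Cd34 971, 1838 and 2315. Mycn (225, 508 and 634) differed by 0.20 over the median of its probe sets. The transcription factor genes Tal1 (-0.03), Erg (-0.21) and Lyl1 (0.26), which progenitors share with stem cells, did not differ by 2-fold.

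Hoxa genes, which encode homeobox factors of stem and progenitor cells, gave a similar picture with fewer measured members. Of 11 Hoxa genes and partners on the array, 5 were at least 2-fold higher and 1 lower. Over all genes on the array, 3.8% were higher and 4.82% lower. The median of the list was 0.75 in Line 3 and 0.78 in Line 6. Of the 6 past the filter, 2 passed only through the transgenic lines. Hoxa9 read 356 in wild type and 963 in Line 6, against 1176 in Line 3, and its second probe set 149, 437 and 412. Hoxa5 (32.8, 93.0 and 128), Hoxa7 (80.1, 121 and 191) and their cofactor gene Meis1 (161, 344 and 365) lay inside 2-fold with a pseudocount of 64, at 0.99, 0.83 and 0.93. Below the filter, Hoxa10 read 16.2, 41.4 and 80.7 and the 1 lower gene, Hoxa13, 33.1, 21.5 and 6.47. Because the published study was known when the stem cell and Hoxa lists were drawn up, neither is independent evidence of its direction. The other gene lists were likewise chosen with earlier results of these data known.

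Vessel and stroma markers shared part of this direction. Of 24 endothelial genes on the array, 7 were at least 2-fold higher and 1 lower. Over all genes on the array, 3.8% were higher and 4.82% lower. The median of the list was 0.67 (0.69 in Line 6). Of the 13 past the filter, 6 passed only through the transgenic lines. Emcn read 26.4 in wild type and 94.0 in Line 6, against 119 in Line 3, Fabp4 440, 1004 and 1113, and Pecam1, which blood cells also carry, 693, 1118 and 1488. Aplnr, the apelin receptor, was lower, at 225, 92.0 and 33.0. Stab2 (84.2, 291 and 219) and Esam (29.7, 89.6 and 104), which is also on the stem cell list, lay inside 2-fold with a pseudocount of 64, at 0.93 and 0.85. The summed intensity of the list was 3110 in wild type and 5152 in Line 6, against 5341 in Line 3. Of 17 marrow stromal genes, 2 were higher and 0 lower, with a median of 0.30 (0.41 in Line 6). Pdgfrb read 128, 307 and 322 and lay inside 2-fold on its plain probe set (0.75) and over the median of its probe sets (0.99). The other, the matrix protein gene Postn, was below the filter.

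Genes of mast cells and basophils stood higher in Line 3. Of 22 on the array, 10 were at least 2-fold higher and 0 lower, against 3.8% and 4.82% of all genes on the array. Their median was 0.66 in Line 3 and 0.25 in Line 6. Of the 18 past the filter, 1 passed only through the transgenic lines. In Line 6, 0 of the 18 were past 2-fold in either direction, where 2.57% of all genes past the filter were higher and 2.41% lower. The difference between the lines in this list was not tested, there being 1 array of each. Mcpt8, the protease that marks basophils, read 2778 in wild type and 3529 in Line 6, against 6939 in Line 3. Fcer1a, the alpha chain of the IgE receptor, read 1281, 1373 and 3396, and Ms4a2, its beta chain, 1351, 1752 and 3857 with its second probe set at 299, 398 and 979. Cpa3, the mast cell carboxypeptidase, read 1281, 1480 and 3579.

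Line 3 was the high array for these 4 genes, with wild type and Line 6 close together. Cyp11a1, the enzyme that starts steroid synthesis and is expressed in basophils and mast cells, read 269 in wild type and 284 in Line 6, against 800 in Line 3. Cd200r3, an activating receptor of these cells, read 144, 184 and 400, and Csf1, a cytokine, 792, 710 and 1630. The transcription factor Gata2, also on the stem cell list, read 1984, 3056 and 4114, and its second probe set 809, 1050 and 1966. The proteases of connective tissue mast cells, Cma1 (0.44), Mcpt4 (0.64), Tpsb2 (-0.87) and Tpsab1 (-0.28), were below the filter and inside 2-fold in Line 3, and Hdc, the histamine-forming enzyme that neutrophil precursors also express, differed by -0.51. The list's summed intensity was 30976 in wild type and 30885 in Line 6, against 45692 in Line 3.

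The promoters of Ms4a2 and Cpa3 are printed with the same marks.
Ms4a2, chr19:11623720-11623969, minus strand: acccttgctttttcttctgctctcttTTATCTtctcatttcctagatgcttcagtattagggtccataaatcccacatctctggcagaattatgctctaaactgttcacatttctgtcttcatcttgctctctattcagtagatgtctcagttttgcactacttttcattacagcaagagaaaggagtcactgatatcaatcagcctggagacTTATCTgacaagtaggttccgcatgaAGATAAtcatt
Cpa3, chr3:20242182-20242431, minus strand: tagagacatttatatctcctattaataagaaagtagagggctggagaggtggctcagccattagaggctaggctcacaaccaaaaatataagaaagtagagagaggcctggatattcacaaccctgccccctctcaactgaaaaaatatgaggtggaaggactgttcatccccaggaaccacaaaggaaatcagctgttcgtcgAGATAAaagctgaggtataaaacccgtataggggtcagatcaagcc

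The 10 mast cell and basophil genes past 2-fold matched 12 promoter windows. AGATAA lay in 4 of the 12 (33.3%, against 9.99% of all windows), TTGCNNAA in 4 (33.3%, against 9.56%) and GAGGAA in 5 (41.7%, against 23.3%). The Ms4a2 window held 3 matches to AGATAA and the Cpa3 window 1, close to the start site at the 3′ end.

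Eosinophil genes were higher by less than 2-fold. All 7 on the array lay above 0 in Line 3, as did 54% of all genes on the array, and 0 were past 2-fold, with a median of 0.49 (0.70 in Line 6). Prg3, a granule protein, read 8342 in wild type and 12590 in Line 6, against 12600 in Line 3, and Epx, the eosinophil peroxidase, 9224, 12515 and 12995. Ccr3, the eotaxin receptor, read 736, 1677 and 797, high in Line 6 only.

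**Figure D3:**
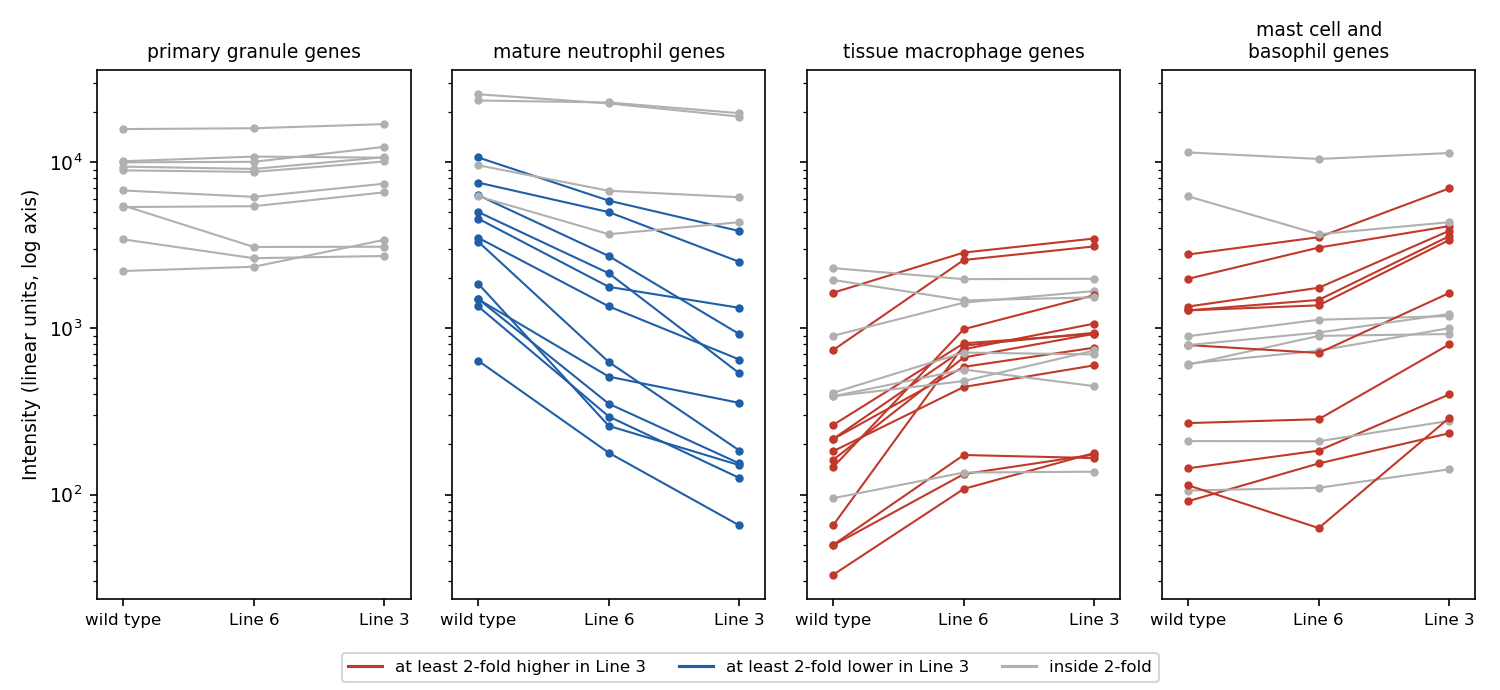
Intensity on a log y axis of each member past the filter in wild type, Line 6 and Line 3 (x axis, 1 array each), for primary granule, mature neutrophil, tissue macrophage, and mast cell and basophil genes, with 1 line per gene. The primary granule genes all stay inside 2-fold in Line 3, 12 of 16 mature neutrophil genes are lower in Line 3, 12 of the 19 macrophage genes drawn are higher (5 of the 19 passed the filter only through the transgenic lines), and the 10 red mast cell and basophil genes are high in Line 3.

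A few genes of lymphoid priming were higher in Line 3. Of 19 lymphoid priming genes on the array, 4 were at least 2-fold higher and 0 lower, against 3.8% and 4.82% of all genes. The list median was 0.62 (0.76 in Line 6). Cd27, a receptor of lymphoid progenitors, read 637 in wild type and 1149 in Line 6, against 1502 in Line 3. Flt3, the cytokine receptor of early lymphoid progenitors, differed by 0.99, where Line 6 differed by 0.14. Dntt, the terminal transferase gene, read 1539, 4305 and 3424 and lay inside 2-fold over the median of its probe sets (0.89). Rag2 (62.7, 346 and 144) and Blnk (150, 546 and 323) lay inside 2-fold after quantile normalization, at 0.98 and 0.94, after centring on array medians, both at 0.99, and with a pseudocount of 64, at 0.71 and 0.85.

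Of 18 pro-B and pre-B cell genes on the array, 2 were at least 2-fold higher in Line 3 and 0 lower. The shares of all genes on the array were 3.8% and 4.82%. The 2 were Dntt and Rag2, both also on the lymphoid priming list. The median of the 18 genes was 0.27 in Line 3 and 1.45 in Line 6. Pax5, which fixes the B cell fate, read 128 in wild type and 610 in Line 6, against 73.4 in Line 3, and Ebf1, which acts before it, 148, 556 and 92.8. Line 3 lay below wild type for both factors (-0.69 and -0.59). Of 21 T and innate lymphoid genes, 3 were higher and 0 lower, with a median of 0.45 (0.38 in Line 6). They were Rora (86.6, 175 and 247), Gzma (741, 1217 and 1721) and Zap70 (113, 252 and 262). The direction of Zap70 was not stable, since its second probe set past the filter differed by -0.18. Zap70 also lay inside 2-fold with a pseudocount of 64 (0.88). Rora lay inside 2-fold over the median of its probe sets (0.85).

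Of 12 plasmacytoid dendritic cell genes, 0 were past 2-fold, with a median of 0.08 (0.62 in Line 6). Of 15 genes of MHC class II presentation, 2 were higher and 1 lower, against 3.8% and 4.82% of all genes on the array. The list median was 0.41 (0.17 in Line 6). The higher ones were H2-Oa and H2-Ob, the chains of a regulator of peptide loading, at 444 in wild type and 755 in Line 6, against 1345 in Line 3 for H2-Oa and 245, 489 and 545 for H2-Ob. H2-Ob lay inside 2-fold with a pseudocount of 64 (0.98). The lower one was Cd80, a ligand that co-stimulates T cells (161, 66.9 and 45.4).

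Few erythroid or megakaryocyte genes were past 2-fold. Of 19 erythroid genes, 2 were at least 2-fold lower and 0 higher, against 4.82% and 3.8% of all genes on the array. The list median was 0.07 (0.06 in Line 6). Alas2, the enzyme that starts haem synthesis in red cells, read 2782 in wild type and 2198 in Line 6, against 928 in Line 3. Hbb-b2, a beta globin whose near-identical copies may share its signal, differed by -1.16 and by -0.997 over the median of its probe sets, inside 2-fold. Epb42, also on the list, differed by -0.74, with its other probe set at -1.06. Slc4a1 differed by -0.62, with its others at -1.12 and -0.81. Car1, a carbonic anhydrase of early red cell precursors, differed by 0.76. Of the 19 erythroid genes, 10 lay above 0 and 9 below. Of 18 megakaryocyte and platelet genes, 1 was lower, the tetraspanin gene Cd9 (2068, 1022 and 738), and 0 higher. Their median was 0.01 (0.29 in Line 6), which turned to -0.05 after quantile normalization and to -0.03 after centring on array medians.

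Kdm1a was higher in Line 3 by less than 2-fold on both of its probe sets. The brighter one read 2104 in wild type and 2575 in Line 6, against 2979 in Line 3, a 1.41-fold higher value, and the other 916, 911 and 1482, a difference of 0.69. Whether these probe sets detect the KDM1A transgene is not stated in the labels, and they do not check the label. Of 21 genes of LSD1 complexes on the array, 0 were past 2-fold, with a median of 0.04 (0.10 in Line 6). The corepressor Ctbp2 differed by -0.68, Gfi1b by 0.61, the deacetylase Hdac2 by 0.34 and Rcor1, the scaffold CoREST, by -0.18.

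Among the JmjC demethylases, which act by another chemistry than LSD1, 2 of 23 genes were at least 2-fold lower and 0 higher. The shares of all genes on the array were 4.82% and 3.8%. Kdm6b, a demethylase of histone H3 lysine 27, read 3312 in wild type and 1156 in Line 6, against 1014 in Line 3, and its plain probe sets differed by -0.78 (the brighter) and -1.29. Kdm7a read 4033, 2866 and 1514. The list median was 0.06 (0.15 in Line 6) and turned to -0.13 over the median of probe sets and to -0.12 on plain probe sets. Of 19 lineage factor genes of the C/EBP, PU.1 and GATA groups, Gata2 was higher and Cebpd lower (3262, 1739 and 1405), with a median of 0.18 (0.09 in Line 6). Cebpa, which starts the granulocyte program, differed by 0.72, and Spi1, encoding PU.1, by -0.59.

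Genes of growth and metabolism differed little. Among all genes on the array, 3.8% were at least 2-fold higher and 4.82% lower. Of 27 cell cycle genes, 0 were past 2-fold, with a median of -0.08 (0.04 in Line 6) and a range from -0.33 for Aurkb to 0.53 for Mcm2. Of 12 cyclins D and CDK inhibitors, 1 was lower, Cdkn2d, an inhibitor of CDK4 and CDK6, at 2938 in wild type and 2030 in Line 6, against 1066 in Line 3. Cdkn1b, encoding p27, differed by -0.92 and Ccnd2, a cyclin D, by 0.89. The median of this list was 0.04 (0.24 in Line 6), with -0.005 after centring on array medians, -0.02 over the median of probe sets and -0.21 on plain probe sets. Ribosomal protein genes (median 0.18, 20 of 21 above 0) and oxidative phosphorylation genes (median 0.15, 20 of 23 above 0) had 0 members past 2-fold. Their Line 6 medians were 0.13 and 0.07, and the median over all genes past the filter was 0.12.

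Of 16 glycolytic enzyme genes, 2 were higher and 0 lower, against 3.8% and 4.82% of all genes on the array. The list median was -0.04 (-0.17 in Line 6) and turned to 0.006 after quantile normalization. The 2 were the phosphofructokinase gene Pfkm (413, 586 and 873) and Aldoc (65.9, 125 and 153). Slc2a3, a glucose transporter, differed by -0.98 on its brightest probe set, just inside 2-fold. Its other probe sets, all past the filter, were past 2-fold lower, at -2.09, -1.99 and -1.39. Pfkm was inside 2-fold after quantile normalization (0.98), and with a pseudocount of 64 so were Pfkm (0.97) and Aldoc (0.74). Of 15 heat shock and chaperone genes, 14 lay above 0 and 1 was past 2-fold, with a median of 0.32 (0.26 in Line 6). That gene was Hsph1, at 1849 in wild type and 3107 in Line 6, against 3837 in Line 3.

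Stress, survival and interferon genes were mixed. For comparison, 3.8% of all genes on the array were at least 2-fold higher and 4.82% lower. Of 15 integrated stress response genes, 2 were higher and 3 lower, with a median of -0.01 (-0.21 in Line 6). The lower ones were Slc7a11, the cystine transporter (171, 129 and 59.0), Sesn2 (1014, 442 and 403) and Chac1, which degrades glutathione (445, 196 and 175), and the higher ones were Ddit4, an inhibitor of mTORC1 (1976, 3034 and 4343), and Vldlr (98.1, 172 and 260). Slc7a11 (-0.93) and Vldlr (0.999) missed 2-fold with a pseudocount of 64, and Sesn2 (-0.80) over the median of its probe sets. Of 14 BCL2 family genes, 1 was lower, Bok (108, 89.0 and 33.0), which missed 2-fold with a pseudocount of 64 (-0.83), with a list median of -0.10 (-0.12 in Line 6). Bcl2 itself, which protects cells from death, read 1505, 2315 and 2735, a difference of 0.85.

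Of 23 interferon-inducible genes, 2 were higher and 2 lower, against 3.8% and 4.82% of all genes on the array. The list median was 0.15 (0.10 in Line 6). The higher ones, the GTPases Iigp1 (55.9 in wild type and 257 in Line 6, against 242 in Line 3) and Gbp6 (96.7, 219 and 210), are induced by interferon gamma, and the lower ones, Ifit1 (369, 206 and 162) and Oasl2 (736, 485 and 356), by type I interferon. With a pseudocount of 64, Gbp6 (0.77), Ifit1 (-0.94) and Oasl2 (-0.93) were inside 2-fold, and Gbp6 was so under both other scalings (0.94 and 0.97). Of 18 Notch pathway genes on the array, 7 were past the filter, 1 was lower and 0 were higher, with a median of -0.16 (0.10 in Line 6). The lower one was the ligand gene Jag1 (185, 58.6 and 40.8), which differed by -0.99 over the median of its probe sets. The direction of the receptor gene Notch1 was not stable, at 0.18 on its brighter probe set and -0.84 on the other, which was past the filter too. Notch2 differed by -0.31.

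**Figure D4:**
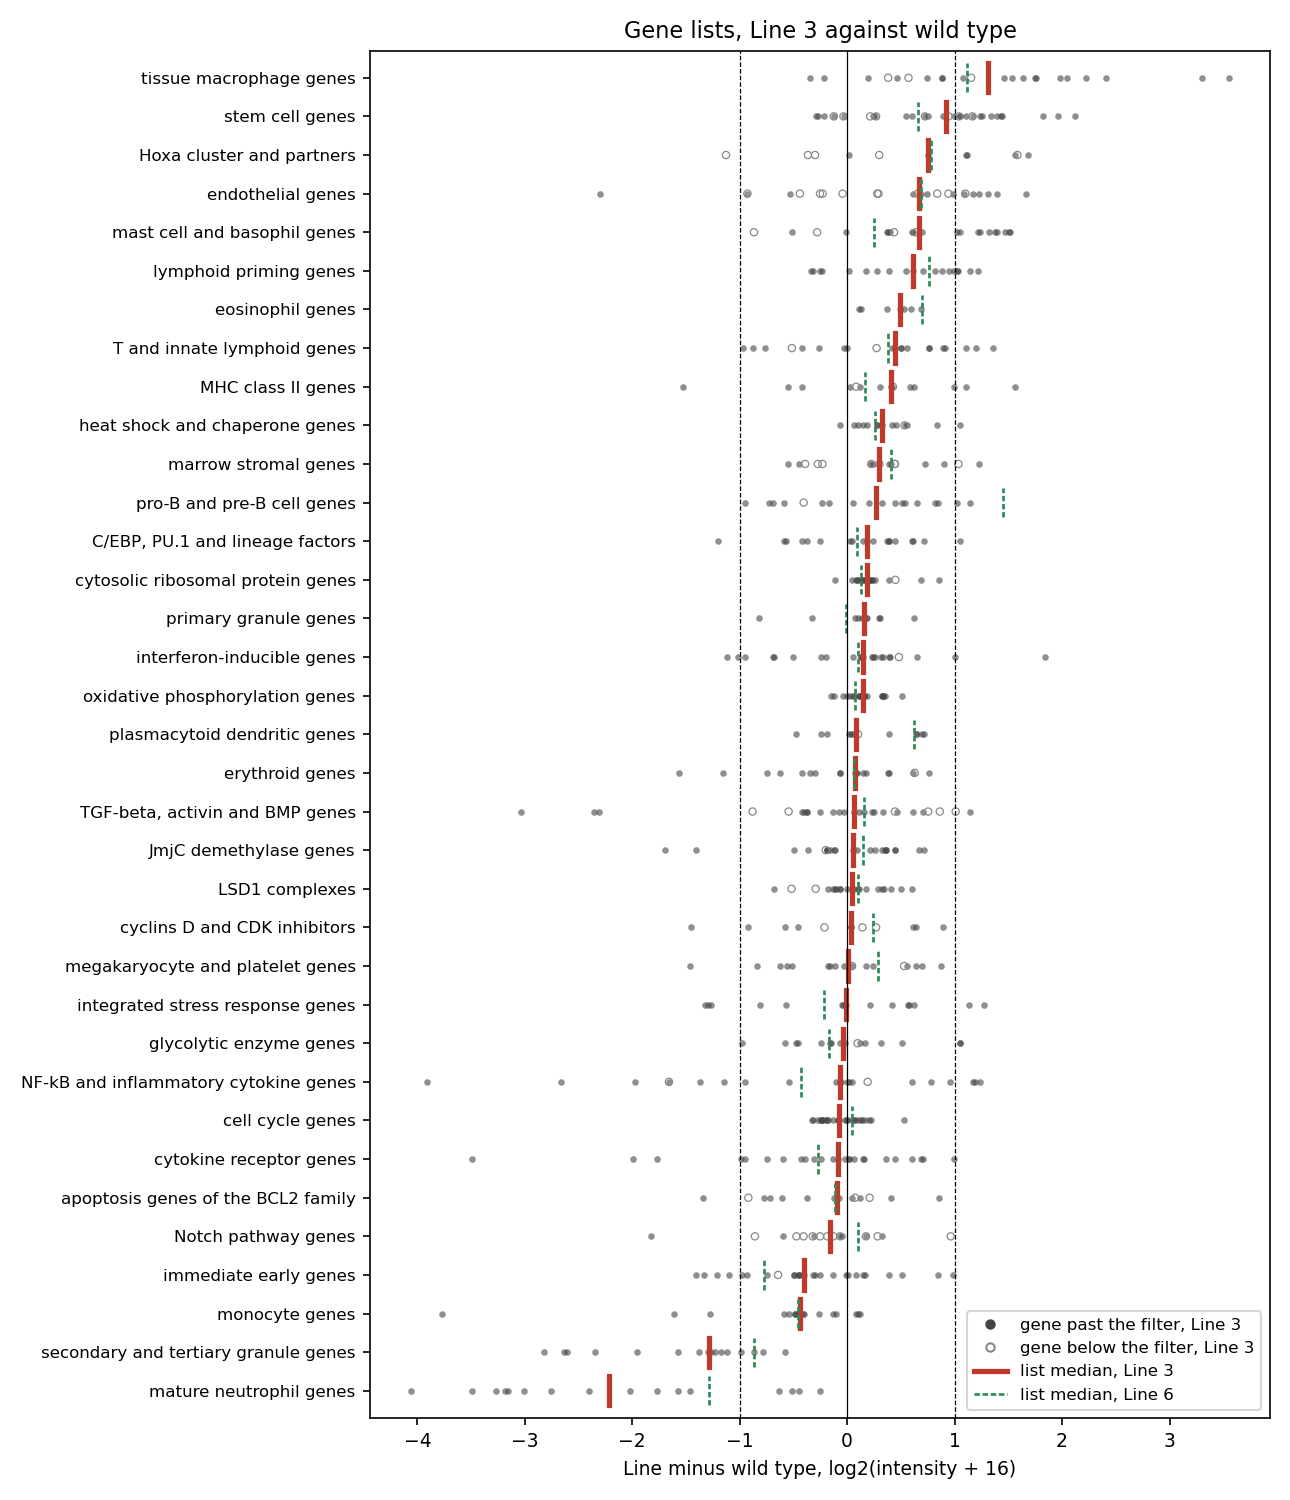
Each point is a gene of a list on the array, with its Line 3 minus wild type difference on the log2(intensity + 16) scale on the x axis and filled points for genes past the filter. Bars give the list medians of Line 3 (red) and Line 6 (green, dashed), from 1.31 for tissue macrophage genes to -2.21 for mature neutrophil genes in Line 3.

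Some genes past 2-fold in Line 3 had a Line 6 difference of the opposite sign. There were 15 among the 388 higher genes and 12 among the 484 lower ones. Both differences subtract the same wild type array, which favours a shared sign. The share of opposite signs over all genes was not counted, so these counts do not measure how well the lines agree. Slc15a2, a peptide transporter, read 189 in wild type and 179 in Line 6, against 663 in Line 3, and Tarbp2, a partner of Dicer, 314, 298 and 809. Ttc28 (83.5, 76.3 and 258), Kifc2 (54.1, 46.0 and 171) and Eid2 (72.1, 65.4 and 209) completed the first 5 higher genes. On these probe sets wild type and Line 6 read alike and Line 3 stood apart, but other probe sets of some of these genes did not show that. The second Tarbp2 probe set, past the filter, read 142, 199 and 220. The other Slc15a2 probe sets, both below the filter, read 11.3, 43.3 and 69.0 and 2.83, 30.4 and 46.1. A dim Ttc28 probe set had Line 6 at 1.29, where another past the filter had 0.20 with Line 3 at 1.22. Over the median of their probe sets, Kifc2 (0.55) and Tarbp2 (0.95) were inside 2-fold, Kifc2 (0.99) also with a pseudocount of 64, and Tarbp2 (0.58) on its plain probe set.

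On the lower side, Retn, the resistin gene that mouse fat cells and some myeloid cells express, read 95.3 in wild type and 128 in Line 6, against 9.92 in Line 3. Crtac1 (163, 168 and 41.4), Aoc3 (77.3, 137 and 15.3), the phospholipase gene Pla2g3 (114, 148 and 30.9) and the neurotrophin receptor gene Ntrk2 (99.1, 103 and 27.9) followed. All 5 read below the array median in Line 3, and with a pseudocount of 64 Aoc3 (-0.83), Pla2g3 (-0.91) and Ntrk2 (-0.83) were inside 2-fold.

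Sex-linked genes differed between the 2 samples. Xist, which coats and silences an X chromosome, read 2729 in wild type and 5155 in Line 3 (0.91), and the Y-linked genes Eif2s3y 2325 and 1031 (-1.16), Kdm5d 645 and 452 (-0.50) and Uty 143 and 131 (-0.11). On these probe sets Line 6 lay on the same side of wild type. It differed by 1.17 for Xist, -1.24 for Eif2s3y, -0.71 for Kdm5d and -0.27 for Uty. The sex-linked difference was thus not particular to Line 3, and both lines share the wild type array. Over the median of its probe sets Xist differed by 2.01 in Line 3. Both kinds of transcript were present in each sample, and their part in the other differences was not tested.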

How the data were processed

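Labelled RNA from 3 sorted bone marrow samples, amplified with the Ovation Pico WTA System, was hybridised to Affymetrix arrays, per the labels' protocols. The deposited intensity values are on a linear scale. Their 2% trimmed mean was 497 on each array, and the labels do not state how the authors summarised and scaled them. Of 45037 probe sets, 34945 had 1 gene symbol in the platform annotation, 932 several and 9160 none, and 34741 matched the RefSeq gene table (GRCm38.p6) by Entrez identifier. From the deposited values, differences were computed on the log2(intensity + 16) scale. No test was made, because 1 array per genotype leaves no spread between replicates. Precision is limited by the number of arrays. Named by rule were Kdm1a, the first 15 genes per direction, the first 10 per direction at or above the median on both arrays, the first 5 per direction with Line 6 of opposite sign, up to 5 members per list by size of difference, and sex-linked genes. Other genes were named after their values were seen. The members and the 36 gene lists were chosen with earlier results of these data known. Alternatives were quantile normalization, centring on medians, pseudocounts of 1 and 64, a filter at percentile 75 or none, a gene's median over its probe sets, and probe sets with the plain suffix _at. The 2-fold limit was also applied to simulated gene values with seeded differences. That run did not test the choice of probe sets or the filter. Promoter windows came from RefSeq. Tools were pandas 2.3.3, numpy 2.4.6, matplotlib 3.10.9 and scipy 1.17.1 under Python 3.11.15.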

Additional observations from a re-analysis of the deposited data

Results flagged for a closer look

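Akap12, an anchoring protein of protein kinase A, ran opposite ways in Line 3 and Line 6, past 2-fold in each. Wild type read 309, Line 3 127 and Line 6 1264, so that the Line 3 minus wild type difference was -1.18 and the Line 6 difference 1.98. With 1 array per line, this contrast of the lines was not tested.

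Probe sets without a single gene symbol lay outside the comparisons of genes. Of 3570 such probe sets past the filter, 119 (3.33%) were past 2-fold on the higher side in Line 3, and 180 (5.04%) were past it on the lower side.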

How the results depend on the processing

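The count of genes at least 2-fold higher in Line 3 was 388 and the count of lower ones 484. With no filter they were 692 and 877, over 18193 genes. With the filter at percentile 75 they were 112 and 301, where 276 of the higher and 183 of the lower genes were no longer among those tested. With a pseudocount of 64 the higher count was 193, and the lower count of 376 stayed within 1.5 times. Quantile normalization, centring on medians, a pseudocount of 1, the median of probe sets and plain probe sets kept both counts within 1.5 times. Of the 388 higher genes, 313 remained under quantile normalization and 344 under centring, and of the 484 lower genes 481 and 484. Of 118 named genes past 2-fold, 33 fell inside it in 1 setting or more. Of the genes named by rule, 4 turned sign in 1 setting or more: Zap70 from 1.11 to -0.18 on its plain probe set, Klk1 from 0.71 to -1.09 over the median of its probe sets and -1.04 on its plain one, Notch1 from 0.18 to -0.33 over the median, and Bmf from -0.72 to 0.11 on its plain one. The median of the mast cell and basophil list was 0.66, and 1.22 on plain probe sets. The causes were not tested. No paired analysis was possible because each genotype had 1 array. No detection calls came with the intensities, so dim values cannot be told from background.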

Other observations

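Some gene families outside the lists had several members past 2-fold in Line 3. They were formed by symbol after the values had been seen, and they get no test. Among all genes past the filter, 3.57% were at least 2-fold higher and 4.46% lower. Of 11 cytochrome P450 genes past the filter, 3 were at least 2-fold higher and 1 was lower. Besides Cyp11a1 the higher ones were the fatty acid epoxygenase genes Cyp2j9 (1.58) and Cyp2j6 (1.20), and the lower one was Cyp39a1 (-1.67), an oxysterol hydroxylase. Of 15 phosphodiesterase genes with symbols beginning Pde, 5 were lower and 1 was higher, with Pde7b at -1.75, Pde1b at -1.39 and Pde2a at -1.33. Of 247 zinc finger genes with symbols beginning Zfp, 11 were higher (4.45%) and 3 lower (1.21%), against 3.57% and 4.46% of all genes past the filter, and their median was 0.29 in Line 3 and 0.20 in Line 6.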
